A study of Mus musculus with 15 samples.

Results

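Probes UCSF033_000796, UCSF033_000797 and UCSF033_000798 were followed in mouse CD4 T cells through activation, rest and restimulation. They are 3 of the 2500 probes of a custom microRNA array, with consecutive ID numbers. They were chosen by measured values, a signal above that of naive cells from 6 h on, so every difference from naive cells below describes that choice and carries no test. The comparisons among 65 h, day 7 and restimulated cells hold no naive array and are the ones tested. The values at these times were also part of a signal above naive from 6 h on. The tests are therefore not fully independent of the choice. No table used here pairs the IDs with microRNA names, so the probes appear by ID and no sequence is printed.

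MicroRNAs are short RNAs that guide Argonaute proteins to messenger RNAs by base pairing, mostly through bases near the 5′ end, and lower the stability or translation of those messages. In CD4 T cells, engagement of the T cell receptor with costimulation starts growth, cytokine production and division, and the microRNA content of the cell is known to change along with it: some microRNAs are induced and others decline. Arrays of this kind can carry several probes for 1 microRNA or for related family members. Whether these 3 share a target was not analysed here.

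Total RNA (50 ng per the series design) came from CD4 T cells of C57/B6 mice, 6 to 8 weeks old, taken from spleen and lymph nodes with CD4-coated beads. There were 2 naive arrays, labelled as untreated, although the source field calls all samples activated. Activation was by anti-CD3 and anti-CD28 fixed to the plate, which stand in for antigen and costimulation, and was sampled at 6, 12, 24, 42 and 65 h with 2 arrays per time. A further array came from cells that had 65 h of stimulation followed by rest with IL-2, a T cell growth factor, up to day 7. The last pair of arrays came from such day 7 cells after 18 h back on the antibodies. Of the 2 slides, slide 1 carried all 8 groups and slide 2 all but the day 7 rest, with a single array of a group per slide. Nothing in the labels shows that paired arrays are separate animals or cultures, and a p-value therefore reflects array-to-array spread that could be technical. The cell type could not be checked against marker microRNAs, since the probes are unnamed. In such bulk RNA, fewer cells carrying a microRNA and less of it per cell cannot be told apart.

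The arrays had 640 to 950 detected probes each and a median spot brightness of 21 to 23, with 1 exception. On slide 2 the first 42 h array had 2146 detected probes, brightness 466, and 51.3% of spots flagged by the scanner software. It is named wherever a value rests on it, and tests are given with and without it. Precision is limited by how few arrays there are.

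Each member was measured well above background at every time. UCSF033_000796 had 6 spots per array, and UCSF033_000797 and UCSF033_000798 had 7 each, scattered over the slide (rows 1 to 136, 11 to 160 and 4 to 185). All 90, 105 and 105 spots over the 15 arrays were well above background. Scanner flags removed 1 spot of UCSF033_000797 and 1 of UCSF033_000798. Outside the first 42 h array the spots of a probe agreed closely: the coefficient of variation over spots had a median of 4.72% for UCSF033_000796, 4.40% for UCSF033_000797 and 4.01% for UCSF033_000798. The widest were 8.67%, 20.0% and 12.0% in the same order, and the last pair belonged to the slide 2 array at 6 h. On the first 42 h array the values were 35.1%, 19.2% and 14.1%.

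Signals were made comparable by dividing each array by the 75th percentile of its 558 probes detected on all 15 arrays. A scaled signal of 100% therefore equals that percentile. Levels of different probes are not set against each other, because probes differ in how brightly they bind.

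UCSF033_000796 stood at 4.90% on slide 1 and 3.25% on slide 2 in naive cells. It was at 16.9% and 13.0% at 6 h, 15.01% and 32.4% at 12 h, and 43.6% and 42.8% at 24 h, in the same slide order. At 42 h it was 68.3% on slide 1 and 49.6% on the first 42 h array, and at 65 h 94.9% and 57.5%. The naive arrays were the lowest of all 15, and the 24 h arrays agreed within 1 percentage point. The day 7 array was at 27.8%, within the range of the 12 h arrays. The restimulated arrays were at 71.8% and 69.4%, inside the range of the 65 h arrays. The naive and 65 h means were -4.65 ± 0.42 and -0.44 ± 0.51 log2 (SD, n = 2 each), a difference of 4.21, or 18.5-fold.

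UCSF033_000797 stood at 4.54% and 3.92% in naive cells and at 19.7% and 22.4% after 6 h. At 12 h the arrays parted, with 17.5% on slide 1 and 63.1% on slide 2. It reached 50.6% and 73.1% at 24 h, and 84.0% on slide 1 and 55.5% on the first 42 h array at 42 h. The 65 h arrays nearly coincided at 106% and 107%. The day 7 array was at 23.9%, close to the 6 h arrays, and the restimulated arrays were at 105% and 112%. The naive and 65 h means were -4.57 ± 0.15 and 0.09 ± 0.01 log2 (SD, n = 2 each), a difference of 4.66, or 25.2-fold.

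UCSF033_000798 was at 25.7% and 15.2% in naive cells, 119.9% and 75.02% at 6 h, 109% and 220.5% at 12 h, and 362% and 284% at 24 h. It reached 610.3% on slide 1 at 42 h, while the first 42 h array showed 110.2%. At 65 h it was at 689% and 406%. The first 42 h array was near the level of the lower 12 h array here, unlike in the other probes, where it stayed near the 24 h level. The day 7 array was at 147% and the restimulated arrays at 578% and 402%. The naive and 65 h means were -2.34 ± 0.53 and 2.40 ± 0.54 log2 (SD, n = 2 each), a difference of 4.74, or 26.7-fold.

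The groups of each probe could be put in order by their means. Naive cells were lowest and, with the first 42 h array included, 65 h and restimulated cells highest for all 3. Without that array, 42 h was highest for UCSF033_000798, at 4.91 log2 above naive on a single array. There 65 h stood at 4.83 and restimulated cells at 4.58. For UCSF033_000796 and UCSF033_000797, 65 h and restimulated cells stayed highest without it. The order of the groups was not resolved throughout: the arrays of 65 h and restimulated cells overlapped for all 3 probes. The 6 h and 12 h arrays overlapped for all 3 probes, and the day 7 value lay within the range of the 12 h arrays for each of them. For 3 of 3 probes the 6 h arrays lay above both naive arrays, as 12.3% of all tested probes did. At 12, 24 and 65 h 3 of 3 lay above as well, against 16.9%, 29.4% and 43.8% of all tested probes. At 42 h, with the first 42 h array included, it was 3 of 3 against 43.8% of 858 probes. The day 7 array and the restimulated arrays also lay above both naive arrays for 3 of 3, against 49.5% and 42.2%. Since these contrasts chose the members, nothing is read from the counts.

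The signal was already well above naive at 6 h on both slides. UCSF033_000796 was higher than the naive array of its slide by 1.78 log2 on slide 1 and 1.999 on slide 2. UCSF033_000797 was higher by 2.12 and 2.52, and UCSF033_000798 by 2.22 and 2.30. These are 3.44-fold to 5.72-fold differences, while the median of all 911 tested probes was 0 on both slides. A difference of exactly 0 arises where a probe was set to the floor of the scale on both arrays. That median is therefore not a measured lack of change. As a share of the log2 rise reached at 65 h, the 6 h values came to 41.7% and 48.2% for UCSF033_000796, 46.7% and 52.7% for UCSF033_000797, and 46.8% and 48.6% for UCSF033_000798. Among the 911 tested probes the members ranked 28th, 9th and 8th from the top on slide 1 and 6th, 1st and 3rd on slide 2. The background-subtracted intensities before scaling gave 1.63 to 2.07 log2 on slide 1 and 1.98 to 2.49 on slide 2, so the early difference was also there without it.

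The 12 h arrays gave different pictures. On slide 1 the 3 probes differed from 6 h by -0.17 to -0.14 log2, and without scaling by -0.94 to -0.91. On slide 2 they were higher by 1.32 for UCSF033_000796, 1.495 for UCSF033_000797 and 1.56 for UCSF033_000798. The slide 2 array at 12 h had therefore reached 80.0%, 84.0% and 81.4% of the log2 rise at 65 h, and the slide 1 array 37.8%, 42.8% and 43.8%. The slides differed at 12 h by 1.11, 1.85 and 1.022 log2, in the same probe order, where the median over all tested probes differed by 0.00. Outside 12 and 42 h the widest difference, slide 2 minus slide 1, was -0.76 log2, for UCSF033_000798 at 65 h. The cause was not tested.

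At 24 h the differences from naive lay closer between the slides than at 12 h, but further apart than at 6 h. They were 3.15 and 3.72 log2 for UCSF033_000796, 3.48 and 4.22 for UCSF033_000797, and 3.82 and 4.22 for UCSF033_000798. On slide 1 UCSF033_000798 and on slide 2 UCSF033_000797 had the largest difference from naive of all 911 tested probes. Most of the 65 h rise in log2 was thus reached by 24 h: 73.7% to 80.4% on slide 1 and 88.4% to 89.7% on slide 2. As scaled signal the slide 1 levels were 43.6%, 50.6% and 362% at 24 h, and 94.9%, 106% and 689% at 65 h. Both 24 h arrays lay above both 6 h arrays for 3 of 3 probes (26.8% of all tested probes) and above both 12 h arrays for 2 of 3 (16.7%). On slide 2 the step from 12 to 24 h was 0.40, 0.21 and 0.36 log2 scaled but -0.60, -0.79 and -0.64 without scaling, so its direction follows the scaling. From 24 to 65 h the probes gained another 0.93 to 1.12 log2 on slide 1 and 0.43 to 0.55 on slide 2. Both 65 h arrays lay above both 24 h arrays for 3 of 3 probes, as for 27.2% of all tested probes. The median tested probe moved by 0.24 log2 on slide 1 and 0.00 on slide 2 between these times. The slide 2 median again comes from probes at the floor on both arrays.

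The step from 24 to 42 h rests on slide 1. There the scaled signals were higher at 42 h by 0.65 log2 for UCSF033_000796, 0.73 for UCSF033_000797 and 0.75 for UCSF033_000798, beside a median of 0.22 for all tested probes. Without scaling the same differences were -0.16, -0.08 and -0.05, so their direction follows the scaling. On the first 42 h array the median tested probe stood 2.13 log2 above the naive array of its slide. The members stood 3.93, 3.82 and 2.86 above it there, ranking 216th, 227th and 334th of 858 probes. Leaving that array out moved the mean difference from naive at 42 h from 3.87 to 4.06 log2 for UCSF033_000796, from 4.02 to 4.28 for UCSF033_000797 and from 3.71 to 4.91 for UCSF033_000798. It moved their differences at the other times by at most 0.09 log2, through the scaling.

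After rest in IL-2 all 3 probes lay lower than at 65 h and above the naive level on the day 7 array, though the step down did not pass the test. On slide 1, which holds that array, the difference from 65 h was -1.77 log2 for UCSF033_000796, -2.14 for UCSF033_000797 and -2.23 for UCSF033_000798. These are 3.41-fold, 4.42-fold and 4.70-fold differences. The median tested probe moved by -0.12 log2. The day 7 array lay below both 65 h arrays for 3 of 3 members, as it did for 30.7% of all tested probes. It stood 2.51, 2.39 and 2.51 log2 above the naive array of the slide, which is 58.6%, 52.8% and 52.9% of the log2 rise reached at 65 h. As scaled signal it was at 27.8%, 23.9% and 147%, against 94.9%, 106% and 689% at 65 h on slide 1. Without scaling it stood 1.38, 1.27 and 1.39 log2 above that array, a smaller difference in the same direction.

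In limma, with 1 day 7 array against 2 at 65 h, the differences were -1.41 log2 for UCSF033_000796 (95% interval -2.71 to -0.11), -2.16 for UCSF033_000797 (-3.69 to -0.62) and -1.85 for UCSF033_000798 (-3.94 to 0.23). None of the 3 passed after Benjamini-Hochberg adjustment, with adjusted p = 0.960, 0.809 and 1, nor did any of the 911 tested probes (0%). Unadjusted p-values below 0.05 numbered 41. This takes the lone day 7 array to have the spread seen in the pairs. Without the first 42 h array the differences were -1.48 (-2.60 to -0.37), -2.23 (-3.70 to -0.77) and -1.93 (-3.20 to -0.66), with adjusted p = 0.184, 0.156 and 0.156. In that fit 6 of 882 probes (0.68%) were called and 131 passed 0.05 unadjusted, and the 3 members were not among the 6. UCSF033_000797 had the 9th lowest difference of the 882, and UCSF033_000798 and UCSF033_000796 the 21st and 46th. Over all 34 settings the lowest adjusted p was 0.0527, for UCSF033_000796 in the deposited value table.

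After restimulation for 18 h the scaled signal of the 3 probes was higher than in the rested cells, again without passing the test. On slide 1 the difference was 1.37 log2 for UCSF033_000796, 2.14 for UCSF033_000797 and 1.98 for UCSF033_000798. Both restimulated arrays lay above the day 7 array for 3 of 3 members, as for 33.3% of all tested probes. The limma differences, 2 arrays against 1, were 1.34 (0.04 to 2.64), 2.18 (0.64 to 3.72) and 1.72 (-0.37 to 3.81), and all 3 had an adjusted p of 1. Limma called 0 of 911 probes (0%), and 14 passed 0.05 unadjusted. Leaving out the first 42 h array gave 1.29 (0.18 to 2.41), 2.13 (0.67 to 3.60) and 1.67 (0.40 to 2.94), with adjusted p = 0.538, 0.513 and 0.513. It again gave 0 of 882 calls (0%), with 78 unadjusted. UCSF033_000797 had the 5th highest difference of the 882, and UCSF033_000798 and UCSF033_000796 the 28th and 56th. Before scaling the slide 1 differences were 0.64, 1.41 and 1.25 log2, smaller but in the same direction.

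Between restimulated and 65 h cells no difference was detected for these probes, with 2 arrays each. The limma difference was -0.07 log2 for UCSF033_000796 (95% interval -1.13 to 0.997), 0.03 for UCSF033_000797 (-1.23 to 1.28) and -0.13 for UCSF033_000798 (-1.84 to 1.57). Adjusted p was 1 for each, with 0 of 911 probes called (0%) and 29 below 0.05 unadjusted. Without the first 42 h array the intervals were -1.099 to 0.72, -1.29 to 1.0995 and -1.30 to 0.78, with 14 of 882 probes called (1.59%), 99 unadjusted, and 0 of the 3 members. The intervals are wide, so equal levels are not shown. The arrays of the groups were free of overlap for 0 of 3 members, against 31.5% of all tested probes.

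The second stimulation, which started from the partly raised day 7 level, was set beside the first. After 18 h of restimulation the scaled signal stood above the 24 h level of the first stimulation on both slides. The excess was 0.72 and 0.70 log2 for UCSF033_000796, 1.05 and 0.62 for UCSF033_000797, and 0.68 and 0.50 for UCSF033_000798. Both restimulated arrays lay above both 24 h arrays for 3 of 3 probes, as for 28.4% of all tested probes. Without scaling the slide 1 values were -0.13, 0.20 and -0.17, and those of slide 2 1.28, 1.2004 and 1.09, so on slide 1 the direction for UCSF033_000796 and UCSF033_000798 depends on the scaling. The times differ (18 h and 24 h), and the difference was not tested.

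The 3 probes moved together across arrays but not by equal amounts. Over the 14 arrays without the first 42 h array, their log2 signals correlated at r = 0.993 between UCSF033_000796 and UCSF033_000798, 0.977 between UCSF033_000796 and UCSF033_000797, and 0.969 between UCSF033_000797 and UCSF033_000798. These points share arrays, labelling and scaling, and the probes were picked for one pattern, so the values are a description. The difference from naive was larger for UCSF033_000797 than for UCSF033_000796 on each of the 11 stimulated arrays, by 0.27 to 0.66 log2 on slide 1 and 0.42 to 0.69 on slide 2. It was also larger for UCSF033_000798 than for UCSF033_000796 on all 11, by 0.44 to 0.77 and 0.30 to 0.59. The deposited value table gave the same direction on these 11 arrays for both pairs. On the day 7 array these leads were -0.11 and 0.0061 log2, so on the scanner values the probes stood there in nearly the same ratio as in naive cells. In the deposited value table the lead of UCSF033_000798 over UCSF033_000796 at day 7 was 0.42 log2. Scaling divides all probes of an array by one number and leaves such ratios unchanged.

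Between UCSF033_000797 and UCSF033_000798 no lead held on both slides. On slide 1 UCSF033_000798 led on 5 of 6 stimulated arrays, with -0.04 to 0.36 log2, and on slide 2 it led on 0 of 5, with -0.21 to -0.0027. In the deposited value table it led on 5 of 6 arrays of slide 1 and 4 of 5 of slide 2, so the side on slide 2 depends on which values are used. The slides also set the ratio of the probes differently: UCSF033_000797 relative to UCSF033_000796 was higher on slide 2 than on slide 1 in 6 of 6 groups, by 0.14 to 0.74 log2. UCSF033_000798 relative to UCSF033_000797 was lower on slide 2 in all 6, with differences of -0.88 to -0.54. Subtracting the naive array of the slide brought the slides closer for this pair but did not make them equal. At 65 h, for example, the leads were then 0.21 log2 on slide 1 and -0.04 on slide 2. The source of the offset was not tested.

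Among 786 other probes detected on at least 50% of the arrays, the log2 signal most like the mean of the 3 members was that of UCSF033_000843 (r = 0.945, Spearman 0.956 over 14 arrays) and UCSF033_000424 (r = 0.936, Spearman 0.938). In all 15 of the 786 had r of at least 0.9. UCSF033_000843 started more slowly, with 1.095 log2 above naive at 6 h, and then passed the members, with 5.65 on the single 42 h array and 5.48 at 65 h. At day 7 it kept 2.60, and after restimulation it reached 4.52. It was dim in naive cells, down to -7.01 log2 with the floor at -7.36 (all 15 arrays). Its differences from naive therefore rest on near-floor values. UCSF033_000424 stood at 0.96 at 6 h, 4.26 at 65 h, 2.05 at day 7 and 3.06 after restimulation. In the same scaling the members had 1.87 to 2.29 at 6 h, 4.30 to 4.83 at 65 h, 2.52 to 2.90 at day 7 and 4.11 to 4.65 after restimulation. The members thus lay higher at 6 h than both of the probes most like them; they had been chosen for their early signal, and the difference was not tested.

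The most opposite patterns were those of UCSF033_000874 (r = -0.893) and UCSF033_000875 (r = -0.890). Both were dim and at the floor of the scale on both 65 h arrays. UCSF033_000874 differed from naive by -0.31 log2 at 6 h and -0.27 at day 7, and UCSF033_000875 by -0.41 and -0.30. Their differences at 65 h depend on the floor and are not given. The probes numbered just before and just after the members did not share their pattern. UCSF033_000795 and UCSF033_000799, with 7 spots each, were detected on 0 of 14 arrays, with intensities from -2.11 to -0.02 after background subtraction. On the first 42 h array both were detected, at 429 and 159. These means rest on the 2 and 3 unflagged spots of 7, with coefficients of variation of 71.8% and 66.3%. In the deposited value table both stood at 4.38 and 4.30 for that array, within their range on the other arrays.

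The deposited value table, on a log2 scale whose centring is not known, held all 3 members and gave smaller differences from naive at the times listed here. They were 1.46, 1.997 and 2.03 at 6 h for UCSF033_000796, UCSF033_000797 and UCSF033_000798, and 3.41, 3.82 and 4.21 at 65 h. Day 7 stood 1.92, 1.65 and 2.53 above naive, and restimulated cells 3.19, 3.83 and 3.92. The order differed in places: at 6 h and after restimulation UCSF033_000798 had the larger difference in the table and UCSF033_000797 on the scanner values. UCSF033_000797 at day 7 stood below its 6 h value in the table and above it on the scanner values. The column of the first 42 h array followed its scanner file poorly over all probes (Spearman 0.459, against at least 0.999 on the others). In that column the members stood 3.02, 3.83 and 4.05 above the naive array of the slide, close to the 2.98, 3.43 and 3.84 of slide 1.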

How the data were processed

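The authors deposited 15 Agilent scanner files. Per the file headers, Feature Extraction 10.1.1.1 had removed background and a spatial trend from each spot's intensity; the submitters' processing notes name version 10.6. RNA was labelled with Cy3, per the labels' protocols. They also deposited a table of log2 values for 2191 probes. Its column medians lay between 4.38 and 4.41; its scale, centring and making are not given in the sources used here.

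Control spots and spots the scanner software flagged (non-uniform, population outlier) were dropped. Spots were averaged per probe, divided by the 75th percentile over the 558 probes detected on all arrays (a probe counts as detected when over 50% of its spots are well above background), floored at 0.607% of it (the 5th percentile of detected values) and taken to log2. Probes detected on both arrays of a group were tested: 911, or 882 without the first 42 h array. Differences were tested with limma 3.58.1 in R 4.3.3 (group as the only term, all arrays, 7 residual degrees of freedom, Benjamini-Hochberg threshold 0.05). The code was tested on simulated data. Slides were read from the file headers.

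The members, comparisons and alternatives were chosen with earlier results of these data known. Named probes besides the members are the 2 with the highest and the 2 with the lowest correlation to their mean, and those with the neighbouring ID numbers.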

Additional observations from a re-analysis of the deposited data

How the results depend on the processing

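Members passed the threshold in 0 of the settings run in any of the 3 tested comparisons. Over 34 settings each, the day 7 differences from 65 h and the restimulated differences from day 7 kept their direction: -1.77 to -1.07 and 1.07 to 1.55 log2 for UCSF033_000796, -2.33 to -1.92 and 1.91 to 2.39 for UCSF033_000797, and -2.23 to -1.49 and 1.39 to 2.04 for UCSF033_000798. The lowest adjusted p for restimulated against day 7 was 0.186. The differences from naive kept their sign in every setting, but not their size. With quantile normalization those at 6 h were 1.12, 1.52 and 1.95 log2, and without scaling those at 65 h were 2.86, 3.30 and 3.39. At 42 h, with the first 42 h array included, the main setting gave 3.87, 4.02 and 3.71. Scaling by the 75th percentile over all probes lowered these to 1.05, 1.20 and 0.894, and quantile normalization to 1.55, 1.94 and 3.05.

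For restimulated against 65 h the sign changed with no call. Without scaling, with or without the first 42 h array, the difference was 0.0839 for UCSF033_000796 and 0.0176 for UCSF033_000798. With the first 42 h array left out it was -0.10 for UCSF033_000797, with or without the slide as a block. Leaving out 1 array gave -0.43 to 0.27 for UCSF033_000796, -0.10 to 0.0376 for UCSF033_000797 and -0.51 to 0.23 for UCSF033_000798.

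The count of probes called, 0 in each comparison, moved with the setting. For day 7 against 65 h it was 49 with the slide block and that array left out, 1 with array weights, 29 in the value table, and 0 to 6 on leaving out 1 array. For restimulated against day 7 it was 2 in the value table and 0 to 1 on leaving out 1 array. For restimulated against 65 h it was 36 with the slide block and that array left out, 1 with no filter, 14 in the value table and 0 to 15 on leaving out 1 array. Settings chosen after seeing the data, all without the first 42 h array, gave 14 and 16 with quantile normalization and 23 and 7 in the value table, for day 7 and restimulated cells against 65 h. The cause was not tested. The labels give no replicate numbers, only a mark on the second array of each pair, so arrays were paired by slide: that block alone called 0 probes in each comparison, with 68, 17 and 45 at an unadjusted limma p under 0.05. One day 7 array and 2 arrays per other group limit every test.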
